A study of Mus musculus with 32 samples.

Results

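The 31 genes described here encode enzymes, carriers and receptors that make, take up, move, export or esterify cholesterol, and they were followed through liver RNA of mice kept in 2 photoperiods. They were chosen by name, as the rows of the deposited count table that carry the listed symbols, and all 31 of 31 were found among its 55471 genes and passed the filter on low counts with 14456 genes in all. The list was chosen with earlier results of these data known. The groups are SL (short light) and LL (long light), each sampled at ZT0, ZT6, ZT12 and ZT18, with 4 mice in each of the 8 groups and 32 livers in total. All mice were male C3H/HeNCrl on a high fat diet (HFD), so both groups carry the diet and no lean control is part of the comparison. ZT is zeitgeber time in hours. The sources used here do not give the hours of light in SL and LL, the event that sets ZT0 or the ages of the mice.

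Cholesterol is built from acetyl-CoA through mevalonate and isoprenoid phosphates to squalene, which is closed into a sterol and trimmed to cholesterol. The enzymes of this route share a transcription factor, SREBP-2, that is released from the endoplasmic reticulum when its membranes are poor in sterol, and oxysterols made when cholesterol is plentiful bind the LXR receptors, which switch on export genes. In liver, cholesterol also arrives in lipoproteins, leaves lysosomes through carrier proteins, is stored as esters, and is passed to lipoproteins and bile.

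The 13 genes of synthesis with a time of day call in both photoperiods peaked between ZT 19.7 and ZT 1.2 in SL livers and between ZT 5.6 and ZT 9.8 in LL livers, whereas the LXR receptors and the exporters Abca1 and Abcg1 gave no difference that passed the test with all libraries. Among these 13, the SL calls of Acat2, Dhcr7 and Fdps were lost in some alternative fits. The photoperiod by ZT interaction, an F-test in edgeR of whether SL minus LL differs among the 4 ZTs, was called for 20 of the 31 genes at an adjusted p below 0.05, against 32.7% of all 14456 tested genes. It was called for 16 of the 19 synthesis genes, 3 of the 7 genes of uptake, transport and efflux, 0 of the 2 LXR receptors and 1 of the 3 esterification genes. Of the 20 calls, 18 held in every one of 39 alternative fits, and those of Ggps1 and Ebp did not. Time of day was called for 17 of the 31 genes in SL livers (19.1% of all genes tested) and for 17 in LL livers (18.3%), with 14 called in both (12.1%). In LL livers the time of day test also called 6 of 6 skeletal muscle markers, and their part in the LL results was not tested. The mean over the 4 ZTs was called for 0 of the 31 genes and for 0% of all genes by edgeR. At an unadjusted p below 0.05 the count of members was also 0, and DESeq2 and limma-voom called 0 members. The differences in that mean lay between -0.14 for Fdps and 0.12 for Npc1 on the log2 scale.

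Total counts per library were 9095615 to 27462776 (median 15665632.5), and the lowest count of any of the 31 genes in any library was 53. CPM below is the count scaled to the effective library size, and log2 differences are SL minus LL. The LL ZT12 replicate 3 library had the lowest mean correlation with its group mates, 0.969 against 0.981 to 0.989 in the other 31 libraries, and counts that change without it are given beside the results. The 8 hepatocyte markers were abundant in every library, with Alb at 77560 to 107600 CPM. Their summed level had group medians of 115000 to 125300 CPM in SL livers and 116700 to 132400 CPM in LL livers, and 5 of the 8 were called for the interaction. Summed levels were 327.1 to 622.4 CPM in SL livers and 325.1 to 567.0 CPM in LL livers for 12 macrophage markers (0 called for the interaction), and 365.2 to 462.2 CPM in SL livers and 301.5 to 467.5 CPM in LL livers for 8 sinusoidal endothelial markers (4 called). The sums were 236.6 to 305.6 CPM in SL livers and 194.4 to 292.3 CPM in LL livers for 8 stellate cell and fibroblast markers, and 30.9 to 48.1 CPM in SL livers and 33.2 to 63.5 CPM in LL livers for 5 cholangiocyte markers, with 1 marker called in each list. The sums of 7 skeletal muscle markers had a group median of at most 9.32 CPM in SL livers, with single livers up to 30.2 CPM. In LL livers the sums were 9.95 to 193.1 CPM at ZT18 (median 41.0), up to 89.7 CPM at ZT0, up to 22.6 CPM at ZT6 and at most 1.44 CPM at ZT12. Of the 6 muscle markers tested, 6 were called for time of day in LL livers, 0 in SL livers and 0 for the interaction, and 5 were called for LL ZT12 minus ZT0. The lymphocyte markers summed to at most 2.34 CPM. The adipocyte markers Adipoq, Plin1 and Cfd were each below 0.57 CPM in every library, and Car3 of the same list, which liver also expresses, had 3866 to 6580 CPM. The part of other cells in the results was not tested, and in whole liver fewer cells of a type and less RNA per cell cannot be told apart.

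**Figure D1:**
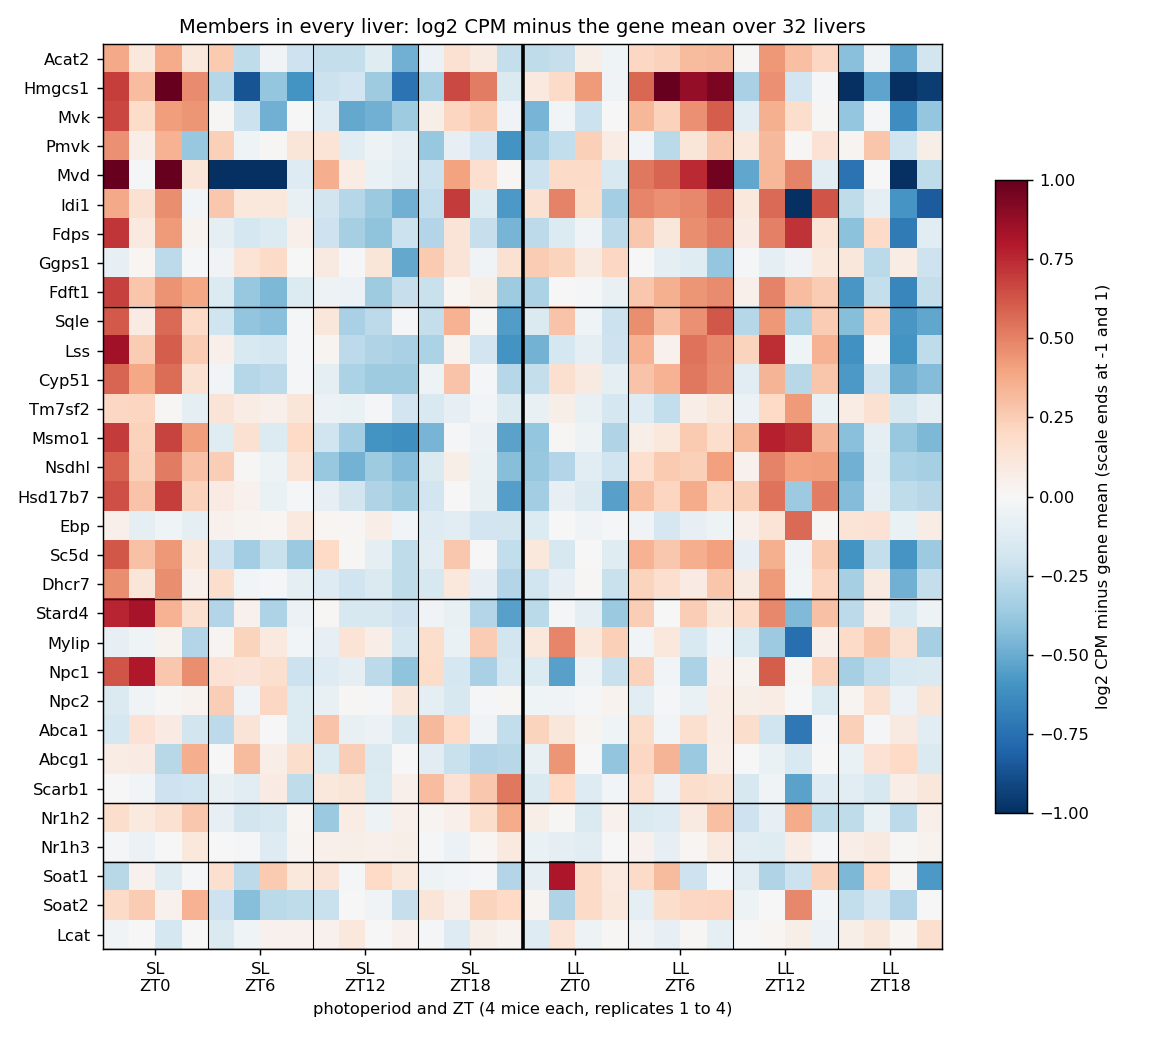
Log2 CPM of the 31 genes in each of the 32 livers, minus the mean of the gene over all livers; columns are livers by photoperiod (SL left, LL right) and ZT, and rows are grouped by role from synthesis at the top to esterification at the bottom. Most synthesis genes are high in SL livers at ZT0 and in LL livers at ZT6 and ZT12, whereas Nr1h3 and Lcat stay near their mean throughout.

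Of the 9 genes that lead from acetyl-CoA to squalene, 7 were called for the interaction, all but Pmvk and Idi1. Hmgcs1 makes HMG-CoA, the precursor of mevalonate, and had the largest swing of all 31 genes. At ZT0 it had 243, 187, 305 and 209 CPM in SL livers, against 161, 172, 202 and 147 CPM in LL livers. At ZT6 it had 124, 82.98, 115 and 99.5 CPM in SL livers, against 225, 324, 278 and 290.0 CPM in LL livers. Every SL liver was below every LL liver at ZT6, and the groups overlapped at ZT0. At ZT12 it had 130.2, 132, 118 and 90.6 CPM in SL livers, against 120.2, 207, 132 and 149 CPM in LL livers. At ZT18 it had 120.1, 238, 216 and 137 CPM in SL livers, against 73.9, 104, 69.2 and 78.2 CPM in LL livers. Every SL liver was above every LL liver at ZT18, where the mouse values spread widely in SL livers, and the groups overlapped at ZT12. The difference on the log2 scale was -1.41 ± 0.20 (SE, adjusted p = 7.70e-06) at ZT6 and 1.12 ± 0.20 (SE, adjusted p = 0.000279) at ZT18 in edgeR, and the interaction had an adjusted p of 1.54e-07.

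Mvd, which decarboxylates mevalonate diphosphate to isopentenyl diphosphate, had 13.9, 11.4, 14.3 and 27.5 CPM in SL livers, against 43.3, 45.1, 50.6 and 58.9 CPM in LL livers at ZT6. All 4 SL livers lay below all LL livers, and 1 SL liver, at 27.5 CPM, stood above the other 3. The difference was -1.55 ± 0.26 (SE, adjusted p = 8.51e-05), the largest of any of the 31 genes at any ZT, and the means at ZT0 were 46.4 ± 17.5 CPM in SL livers and 30.4 ± 4.58 CPM in LL livers (SD, n = 4), a difference of 0.62 ± 0.26 (SE, adjusted p = 0.13). Fdft1, squalene synthase, commits farnesyl diphosphate to sterols, and had a mean of 160.2 ± 19.7 CPM in SL livers and 109 ± 10.6 CPM in LL livers at ZT0. At ZT6 it had 97.02 ± 10.9 CPM in SL livers and 153 ± 9.58 CPM in LL livers, and at ZT12 104 ± 10.4 CPM in SL livers and 142 ± 18 CPM in LL livers. The SL and LL livers did not overlap at any of these times, and the differences were 0.56 ± 0.12, -0.65 ± 0.12 and -0.45 ± 0.12 (SE) at ZT0, ZT6 and ZT12, all with adjusted p under 0.05. The ZT12 call of Fdft1 was lost in a fit of the ZT12 groups alone (-0.45). Mvk, the kinase that phosphorylates mevalonate, passed the threshold at all 4 ZTs, with 0.61 ± 0.14, -0.58 ± 0.13, -0.48 ± 0.14 and 0.47 ± 0.14 (SE) from ZT0 to ZT18. Its ZT12 call was lost in a fit of these groups alone and without any one of 3 libraries, and its ZT18 call without any one of 5 libraries (0.38 to 0.45). Acat2, the cytosolic thiolase that opens the route, was higher in SL livers at ZT0 (0.36 ± 0.12) and lower at ZT12 (-0.51 ± 0.12), and Fdps, which makes farnesyl diphosphate, followed the same order (0.52 ± 0.16 and -0.68 ± 0.16). The ZT0 call of Acat2 was lost in 8 alternative fits, which are the replicate block, no filter on low counts and 6 that leave out a library, and that of Fdps without any one of 5 libraries. Acat2 is uncertain, because its transcripts match those of Acat3 at 97.7% identity over 1477 bases and Acat3 had a mean of 152.7 CPM. Fdps shares near-identical stretches with pseudogenes of at most 1.99 CPM and 1124 exon bases on the same strand with Gm43738. Hmgcs1, Fdft1, Idi1, Ggps1, Lss and Cyp51 each overlap a gene on the opposite strand in 166 to 774 exon bases, and the strand setting of the counting is not given in the sources used here.

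Ggps1 makes geranylgeranyl diphosphate, the isoprenoid of protein prenylation, and stood apart within the group. Its means at ZT0 were 7.42 ± 0.64 CPM in SL livers and 9.01 ± 0.451 CPM in LL livers, where all SL livers lay below all LL livers, and the difference was -0.29 ± 0.12 (SE, adjusted p = 0.132). Its interaction call (adjusted p = 0.0456) was lost in 20 of the 39 alternative fits, 19 of which leave out a library. Idi1, which isomerises isopentenyl diphosphate, had the largest interaction p of the group. Its SL livers had 27.2, 23.3, 28.9 and 20.5 CPM at ZT0, 25.3, 22.6, 22.6 and 19.9 at ZT6, 18.4, 17.1, 16.2 and 14.9 at ZT12 and 17.6, 34.1, 19.04 and 14.03 at ZT18. Its LL livers had 23.3, 29.6, 23.9 and 16.5 CPM at ZT0, 29.4, 28.8, 29.3 and 31.4 at ZT6, 22.5, 31.1, 5.82 and 32.4 at ZT12 and 17.5, 19.6, 13.9 and 11.7 at ZT18. All SL livers lay below all LL livers at ZT6, and the groups overlapped at the other times. The LL ZT12 replicate 3 liver, at 5.82 CPM, was far below its group mates, and the interaction had an adjusted p of 0.225 with it and 0.00463 without it. Pmvk, which adds the second phosphate to mevalonate, had group means from 58.7 ± 8.91 to 80.7 ± 19.4 CPM in SL livers and from 69.9 ± 13.2 to 80.2 ± 7.31 CPM in LL livers (SD, n = 4), with an adjusted p of 0.128 for the interaction, and of 0.0242 without SL ZT0 replicate 4.

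The promoters of Hmgcs1 and Mvk are shown because Hmgcs1 had the largest amplitude and the ZT0 and ZT6 calls of Mvk, in opposite directions, held in every alternative fit, and that of Acat2 because it was the 1 synthesis gene without a CCAAT box among those matched. Each is the 150 bases before the RefSeq start on GRCm38.p6, 5′ to 3′, with matches to the SREBP consensus TCACNCCAC and to the CCAAT box in either orientation in capitals. Hmgcs1 is at chr13:119690201-119690350 (plus strand), Mvk at chr5:114444119-114444268 (plus strand) and Acat2 at chr17:12960726-12960875 (minus strand).
Hmgcs1: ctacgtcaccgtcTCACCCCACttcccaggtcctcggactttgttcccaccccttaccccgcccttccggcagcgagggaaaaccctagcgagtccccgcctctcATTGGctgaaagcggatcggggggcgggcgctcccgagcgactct
Mvk: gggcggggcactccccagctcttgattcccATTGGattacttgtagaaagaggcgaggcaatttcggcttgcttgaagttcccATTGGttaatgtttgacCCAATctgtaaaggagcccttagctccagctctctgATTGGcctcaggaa
Acat2: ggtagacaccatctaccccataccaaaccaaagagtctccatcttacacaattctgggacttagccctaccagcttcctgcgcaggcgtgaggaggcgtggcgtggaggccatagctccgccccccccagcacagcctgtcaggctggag

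Of the 10 genes that turn squalene into cholesterol, 9 were called for the interaction, all but Tm7sf2. Nsdhl, a dehydrogenase that removes methyl groups from the sterol ring, had the smallest interaction p of all 31 genes. At ZT0 it had 152, 119, 144 and 123 CPM in SL livers, against 77.4, 82.05, 93.7 and 87.8 CPM in LL livers. At ZT6 it had 119.7, 101, 97.4 and 111 CPM in SL livers, against 113, 121, 119 and 134 CPM in LL livers. The SL livers were all above the LL livers at ZT0, and the groups overlapped at ZT6. At ZT12 it had 77.5, 72.7, 78.8 and 74.3 CPM in SL livers, against 104, 142, 134 and 134 CPM in LL livers. At ZT18 it had 90.9, 105, 95.9 and 74.8 CPM in SL livers, against 72.1, 93.7, 80.8 and 79.8 CPM in LL livers. The SL livers were all below the LL livers at ZT12, with a narrow spread in SL livers, and the groups overlapped at ZT18. The log2 difference was 0.66 ± 0.10 (SE, adjusted p = 4.57e-05) at ZT0 and -0.76 ± 0.10 (SE, adjusted p = 5.01e-06) at ZT12 in edgeR, and the interaction had an adjusted p of 7.45e-08.

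Msmo1, the oxidase that acts on the same methyl groups just before Nsdhl, had 339, 244, 333 and 279 CPM in SL livers, against 159, 210.3, 200.7 and 169 CPM in LL livers at ZT0. At ZT12 it had 181, 164, 137 and 136 CPM in SL livers, against 262, 357, 347 and 263 CPM in LL livers. The groups did not overlap at either time, and they lay on opposite sides. The differences were 0.69 ± 0.14 (SE, adjusted p = 0.000608) and -0.99 ± 0.14 (SE, adjusted p = 4.94e-06). Hsd17b7, the ketoreductase of the same demethylation, was 0.75 ± 0.14 higher at ZT0 and differed by -0.50 ± 0.14 at ZT12 (SE). Lss, which closes squalene epoxide into lanosterol, followed with 0.74 ± 0.16 and -0.55 ± 0.16, and Dhcr7, which performs the last reduction to cholesterol, with 0.41 ± 0.11 and -0.37 ± 0.11. All of these passed the threshold, and those of Hsd17b7, Lss and Dhcr7 at ZT12 each lost their call without any one of 4 libraries. Dhcr7 also lost its ZT0 call without any one of 3 libraries (0.35 to 0.38).

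Sc5d, a desaturase late in the route, and Cyp51, which removes a methyl group from lanosterol, passed the threshold at ZT0, ZT6 and ZT18 and did not at ZT12. Sc5d had 693 ± 105 CPM in SL livers and 520.0 ± 44.4 CPM in LL livers at ZT0, 438 ± 24.9 CPM in SL livers and 679.6 ± 28.1 CPM in LL livers at ZT6 and 529 ± 82.2 CPM in SL livers and 394 ± 48.5 CPM in LL livers at ZT18 (SD, n = 4). Its differences were 0.41 ± 0.12, -0.63 ± 0.12 and 0.43 ± 0.12 (SE), and those of Cyp51 were 0.45 ± 0.13, -0.56 ± 0.13 and 0.41 ± 0.13. Their ZT6 calls held in every alternative fit. Sc5d lost its ZT0 call without any one of 3 libraries and its ZT18 call without any one of 3. Cyp51 lost its ZT0 call without any one of 4 libraries and its ZT18 call without any one of 6, and it was called at ZT12 without LL ZT12 replicate 1 (-0.41) or LL ZT12 replicate 3 (-0.46). Sqle, the epoxidase that begins sterol formation, passed the threshold at ZT6 and at no other ZT, with 81.5 ± 10.8 CPM in SL livers and 133 ± 12.4 CPM in LL livers and a difference of -0.71 ± 0.19 (SE, adjusted p = 0.00834). Ebp, an isomerase, had the smallest differences of the 9 genes called, between -0.23 ± 0.08 at ZT18 and 0.13 ± 0.08 at ZT6, and none passed the threshold at a single ZT. Every SL liver lay above every LL liver at ZT6 and below every LL liver at ZT18, and both differences were called without LL ZT12 replicate 3 (0.15 and -0.24). Its interaction call (adjusted p = 0.038) was lost in 17 of the 39 alternative fits, 16 of which leave out a library.

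Tm7sf2, a sterol reductase, had the largest interaction p of the group. Its SL livers had 179, 179.7, 156 and 145 CPM at ZT0, 169, 163, 160.1 and 168 at ZT6, 149, 148, 154 and 136 at ZT12 and 139, 146, 152 and 140.3 at ZT18. Its LL livers had 147, 161, 147 and 137 CPM at ZT0, 142, 131, 162 and 167 at ZT6, 149, 177, 209 and 148 at ZT12 and 163, 172, 138 and 146 at ZT18. The groups overlapped at every ZT, the interaction had an adjusted p of 0.0667, and the narrower test of a 24 h rhythm difference passed at 0.0322. That call was lost in 7 alternative fits, 6 of which leave out a library, and the interaction was called in 5, 4 of which leave out a library. Tm7sf2 shares 532 exon bases on the same strand with Vps51, so its counts are uncertain. Levels per length also differed widely along the route. Over all livers Sc5d had 112.2 and Ebp 95.1 CPM per kilobase of exon, while Idi1 had 6.32 and Ggps1 1.68.

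The promoters of Nsdhl and Msmo1 are shown because the SL and LL livers of both genes separated in opposite directions at ZT0 and ZT12. Both are again 150 bases before the RefSeq start on GRCm38.p6, 5′ to 3′, with CCAAT boxes in either orientation in capitals. Nsdhl is at chrX:72918371-72918520 (plus strand) and Msmo1 at chr8:64733579-64733728 (minus strand).
Nsdhl: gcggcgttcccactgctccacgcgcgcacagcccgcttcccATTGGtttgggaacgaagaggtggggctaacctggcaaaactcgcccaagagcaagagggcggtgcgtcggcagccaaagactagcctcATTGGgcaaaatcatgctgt
Msmo1: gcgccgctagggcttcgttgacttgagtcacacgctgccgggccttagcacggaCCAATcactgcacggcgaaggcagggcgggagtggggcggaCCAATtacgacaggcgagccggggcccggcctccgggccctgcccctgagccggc

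In RefSeq windows from 250 bases before to 50 after the start, available for 23 of the 31 genes, a CCAAT box on either strand was found in 15 of 16 synthesis genes (93.8%) and in 4 of 7 other genes (57.1%). A gene counts when any of its windows holds a match. The share was 41.1% over all genes of the promoter set and 42.7% over those tested. The SREBP consensus TCACNCCAC was searched as an exact match on both strands. Among the 23 genes it was found in Hmgcs1 alone, starting 137 bases before the start, against 1.44% of all genes of the set. Fdps, Fdft1, Sqle, Stard4, Npc1, Abcg1, Soat2 and Scarb1 had no window and were not searched. The clock E-box CACGTG was found in 4 of 23 genes, Hsd17b7, Sc5d, Dhcr7 and Abca1 (17.4%), against 8.09% of all genes of the set and 11.5% of those tested. None of the 3 motifs contains another. These matches are letters in a window and carry no measurement of binding.

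**Figure D2:**
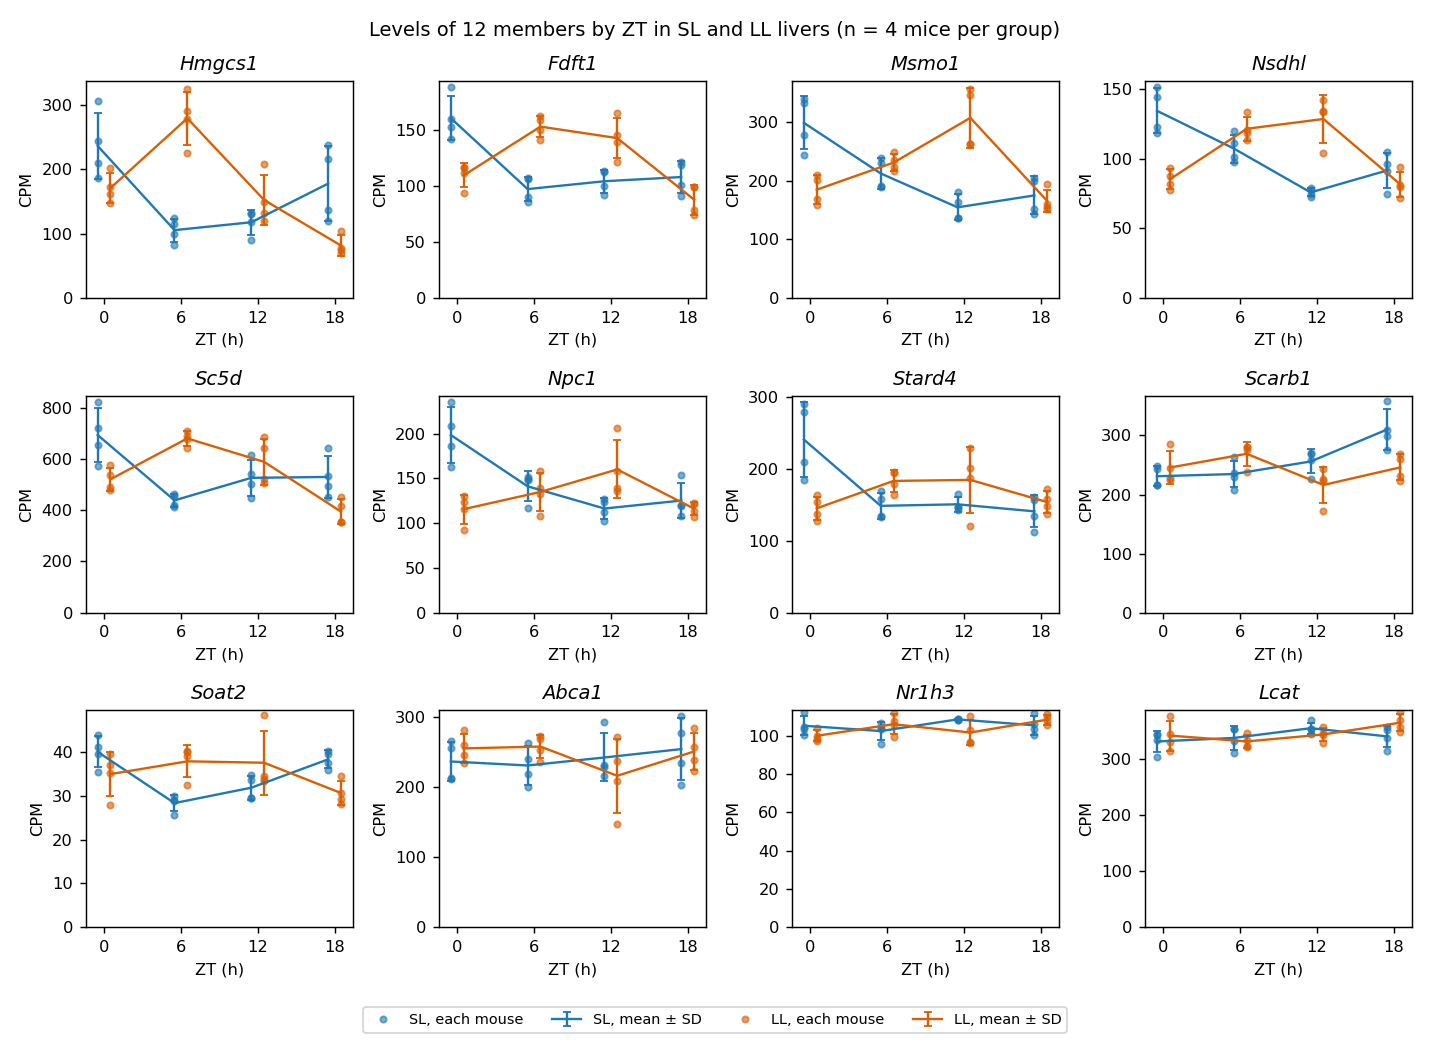
CPM of 12 of the genes against ZT in hours, with SL livers in blue and LL livers in orange; points are single mice, and lines join the group means with their SD (n = 4). The SL maximum of Hmgcs1, Fdft1, Msmo1, Nsdhl and Sc5d is at ZT0, and the LL maximum is at ZT6 or ZT12; Abca1, Nr1h3 and Lcat have no time of day call in either.

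Among the 7 genes of uptake, transport and efflux, Npc1, Stard4 and Scarb1 were called for the interaction, and Npc2, Mylip and the exporters were not. Npc1, the membrane protein that releases cholesterol from lysosomes, had the smallest interaction p of the group. At ZT0 it had 209, 235, 163 and 187 CPM in SL livers, against 123, 92.8, 130.5 and 116 CPM in LL livers. At ZT6 it had 149, 148, 151 and 116 CPM in SL livers, against 159, 133, 108 and 139.8 CPM in LL livers. All SL livers were above all LL livers at ZT0, and the groups overlapped at ZT6. At ZT12 it had 123, 127, 113 and 102 CPM in SL livers, against 139, 206, 136 and 159 CPM in LL livers. At ZT18 it had 154, 119.8, 108 and 119.6 CPM in SL livers, against 107, 114, 122 and 122 CPM in LL livers. All SL livers were below all LL livers at ZT12, and the groups overlapped at ZT18. The difference was 0.78 ± 0.14 (SE, adjusted p = 0.000176) at ZT0, the largest of the 31 genes at that time, and -0.46 ± 0.14 (SE, adjusted p = 0.024) at ZT12. The ZT12 call was lost without SL ZT12 replicate 3 (-0.44), SL ZT12 replicate 4 (-0.40) or LL ZT12 replicate 2 (-0.31), and in a fit of the ZT12 groups alone. Npc1 overlaps Rmc1 and an antisense gene on the opposite strand in 511 and 90 exon bases. Npc2, the soluble lysosomal partner of Npc1, stayed between 62.5 ± 3.29 and 68.9 ± 8.88 CPM in SL livers and between 64.1 ± 3.47 and 68.01 ± 4.42 CPM in LL livers (SD, n = 4), with an adjusted interaction p of 0.359.

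Stard4, a cytosolic carrier of sterol between membranes, had 279.7, 291, 210.0 and 184 CPM in SL livers, against 137, 164, 154 and 127 CPM in LL livers at ZT0. All SL livers were above all LL livers, and the difference was 0.73 ± 0.15 (SE, adjusted p = 0.0011). Its time of day test in LL livers had an adjusted p of 0.172 with all libraries and 0.0161 without LL ZT12 replicate 3. Scarb1, the HDL receptor that takes up cholesteryl esters, had 308, 275, 299.5 and 358 CPM in SL livers, against 232, 223, 260.0 and 269 CPM in LL livers at ZT18. All SL livers were above all LL livers at that time, with a difference of 0.34 ± 0.10 (SE, adjusted p = 0.034), and the interaction had an adjusted p of 0.00947. The ZT18 call was lost without any one of 6 libraries of these groups, with differences of 0.26 to 0.35 in those fits. Mylip, a sterol-induced ubiquitin ligase that marks lipoprotein receptors for breakdown, had 9.79 ± 0.929 CPM in SL livers and 12.4 ± 1.64 CPM in LL livers at ZT0, where every SL liver was below every LL liver, and a difference of -0.34 ± 0.14 (SE, adjusted p = 0.137). Its interaction had an adjusted p of 0.0948. Its rhythm difference was called (adjusted p = 0.0485), and that call was lost in 21 of 39 alternative fits, 19 of which leave out a library.

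Abca1 and Abcg1 export cholesterol to apolipoproteins and HDL and are classic LXR targets. Abca1 had group means between 231 ± 27.1 and 254 ± 43.9 CPM in SL livers and between 216 ± 52.8 and 258 ± 16.97 CPM in LL livers (SD, n = 4), with an adjusted interaction p of 0.496. Abcg1 had the largest adjusted interaction p of the group, 0.506. Its SL livers had 7.32, 7.36, 5.71 and 8.97 CPM at ZT0, 6.94, 8.67, 7.29 and 7.86 at ZT6, 6.31, 8.26, 6.28 and 6.96 at ZT12 and 6.45, 5.93, 5.66 and 5.71 at ZT18. Its LL livers had 6.60, 9.48, 6.93 and 5.25 CPM at ZT0, 8.05, 8.81, 5.35 and 7.30 at ZT6, 6.96, 6.62, 6.23 and 6.93 at ZT12 and 6.65, 7.68, 8.01 and 6.26 at ZT18. The ranges of SL and LL livers overlapped at ZT0, ZT6 and ZT12, and at ZT18 the highest SL liver, at 6.45 CPM, lay above the lowest LL liver, at 6.26 CPM.

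Neither LXR receptor was called in any comparison with all libraries. The 24 h rhythm difference of Nr1h2 was called in 4 alternative fits that each leave out 1 LL library, 2 of ZT6 and 2 of ZT12, with adjusted p of 0.0397 to 0.0491. Nr1h2 (LXR beta) had, in SL livers, 33.6, 31.8, 32.96 and 35.9 CPM at ZT0, 28.01, 26.2, 26.6 and 30.1 at ZT6, 22.98, 31.3, 28.6 and 30.8 at ZT12 and 30.3, 30.8, 33.6 and 38.5 at ZT18. In LL livers it had 30.9, 29.96, 26.8 and 30.7 CPM at ZT0, 26.8, 27.2, 31.6 and 36.5 at ZT6, 25.7, 28.1, 38.5 and 24.9 at ZT12 and 24.9, 28.4, 24.8 and 30.8 at ZT18. All SL livers lay above all LL livers at ZT0, with a difference of 0.18 ± 0.12 (SE, adjusted p = 0.403), the photoperiods overlapped at the other times, and the interaction had an adjusted p of 0.133. Nr1h3 (LXR alpha, the main form in hepatocytes) had, in SL livers, 103, 101, 105 and 112 CPM at ZT0, 104, 103, 95.98 and 106 at ZT6, 108, 109, 108 and 109 at ZT12 and 104, 100.4, 106 and 112 at ZT18. In LL livers it had 99.9, 98.5, 97.5 and 104 CPM at ZT0, 108, 99.2, 106 and 112 at ZT6, 96.9, 96.4, 110.4 and 103 at ZT12 and 109.7, 111, 105 and 108 at ZT18. The photoperiods overlapped at every ZT, the fitted 24 h wave had an amplitude of 0.03 in SL livers and 0.02 in LL livers (SE 0.02 each) on the log2 scale, and the interaction had an adjusted p of 0.302. Its SL minus LL differences were 0.07 ± 0.06, -0.05 ± 0.06, 0.09 ± 0.06 and -0.04 ± 0.06 (SE) from ZT0 to ZT18.

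Of the 3 esterification enzymes, Soat2, which makes cholesteryl esters for lipoproteins in hepatocytes, was called and Soat1 and Lcat were not. At ZT0 Soat2 had 39.5, 41.2, 35.5 and 43.9 CPM in SL livers, against 35.2, 27.97, 39.6 and 37.1 CPM in LL livers. At ZT6 it had 29.97, 25.7, 28.7 and 28.97 CPM in SL livers, against 32.4, 39, 39.98 and 40.2 CPM in LL livers. All SL livers were below all LL livers at ZT6, and the groups overlapped at ZT0. At ZT12 it had 29.5, 34.7, 33.7 and 29.5 CPM in SL livers, against 33.3, 34.6, 48.4 and 33.96 CPM in LL livers. At ZT18 it had 37.6, 35.8, 40.3 and 39.7 CPM in SL livers, against 29.2, 30.7, 28.2 and 34.5 CPM in LL livers. All SL livers were above all LL livers at ZT18, and the groups overlapped at ZT12. The difference was -0.42 ± 0.11 (SE, adjusted p = 0.00752) at ZT6 and 0.32 ± 0.11 (SE, adjusted p = 0.0634) at ZT18, and the interaction had an adjusted p of 0.000713. Lcat, which esterifies cholesterol on circulating HDL after secretion by the liver, was the highest of the 31 genes per length, with 256.1 CPM per kilobase of exon. Its SL livers had 335, 343, 304 and 345 CPM at ZT0, 311, 333, 354 and 354 at ZT6, 354, 369, 345 and 354 at ZT12 and 338, 314, 358 and 352 at ZT18. Its LL livers had 314, 378, 331 and 346 CPM at ZT0, 335, 324, 347 and 322 at ZT6, 343, 348, 358 and 329 at ZT12 and 358, 371, 349 and 384 at ZT18. The photoperiods overlapped at every ZT, with differences from -0.10 ± 0.06 at ZT18 to 0.05 ± 0.06 at ZT12 (SE) and an adjusted interaction p of 0.481. Soat1, the form of macrophages and many other cells, had 0.547 CPM per kilobase, the lowest of the 31, with an adjusted interaction p of 0.225.

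**Figure D3:**
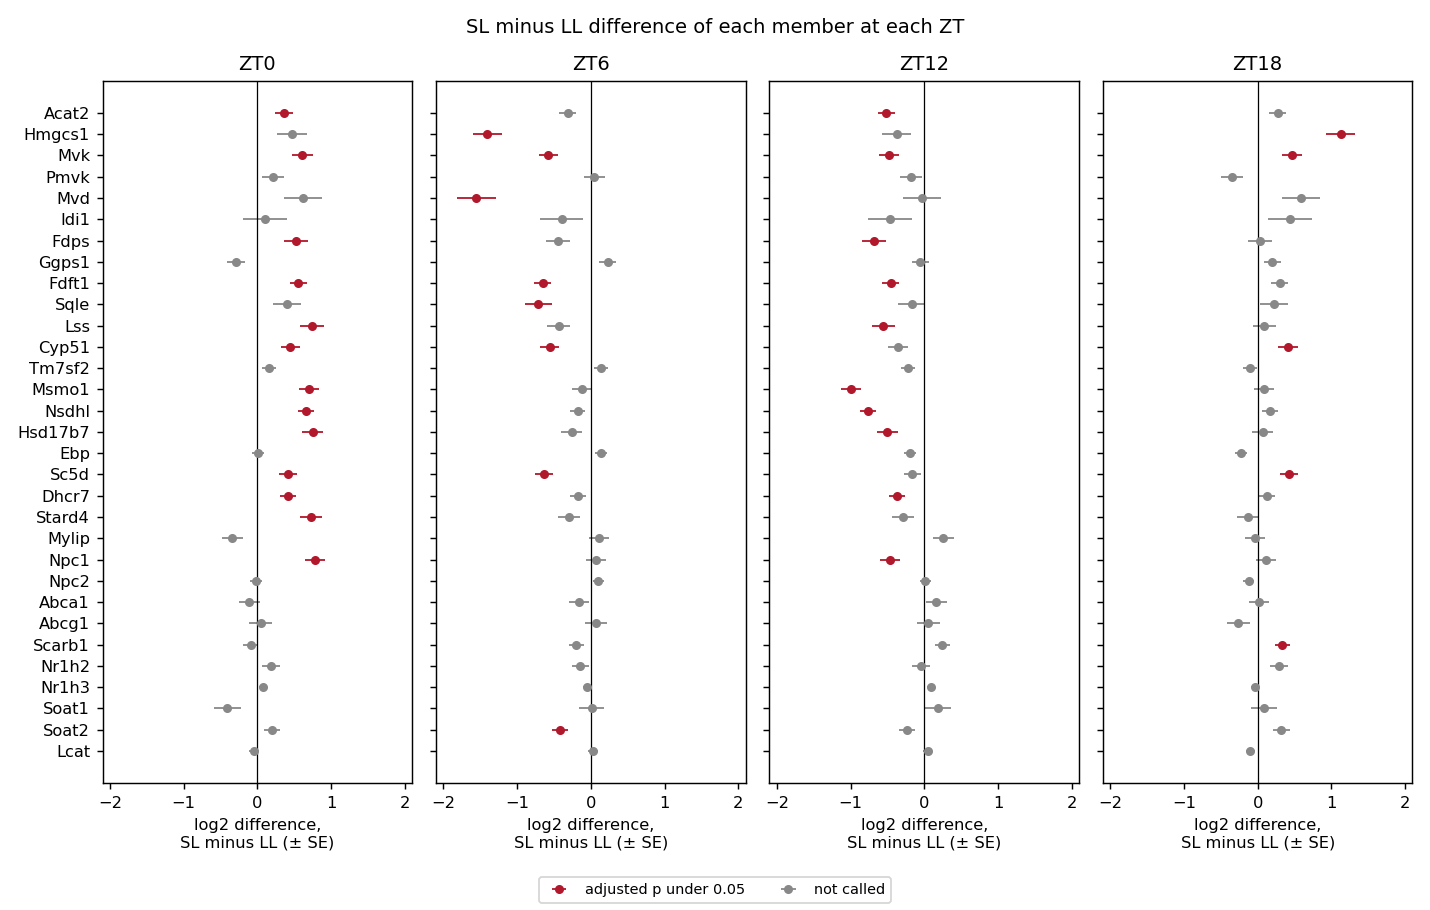
SL minus LL difference on the log2 scale (x axis, with SE) of each of the 31 genes at ZT0, ZT6, ZT12 and ZT18; red marks an adjusted p under 0.05 in edgeR and grey marks the rest. All 13 genes called at ZT0 and all 5 at ZT18 lie to the right of 0, and all 8 at ZT6 and all 10 at ZT12 to the left.

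Read by time, 13 of the 31 genes were higher in SL livers at ZT0 and 0 were lower, against 6.07% and 4.97% of all genes. The median difference was 0.36 over the 31 genes and -0.00 over all genes, and 11 of the 13 were synthesis genes. At ZT6, 0 were higher and 8 lower (6.90% and 8.38% of all genes, 15.3% in all), 7 of them synthesis genes, with a median of -0.18 over the 31. At ZT12, 0 were higher and 10 lower (6.05% and 6.40%, 12.4% in all), 9 of them synthesis genes, with a median of -0.22. At ZT18, 5 were higher and 0 lower (4.82% and 4.39%, 9.21% in all), 4 of them synthesis genes, with a median of 0.11. The genes called at ZT6 were Hmgcs1, Mvk, Mvd, Fdft1, Sqle, Cyp51, Sc5d and Soat2, and Msmo1, Nsdhl, Hsd17b7, Lss, Acat2, Fdps, Dhcr7 and Npc1 were called at ZT12 and not at ZT6. This division moved with the fit. At ZT6 Fdps was called in 7 alternatives (-0.51 to -0.43), Lss in 6 (-0.53 to -0.42), and Acat2 and Hsd17b7 in 1 each, while at ZT12 Lss, Hsd17b7 and Dhcr7 lost their call in 5 and Npc1 in 4. Whether a gene's ZT6 and ZT12 differences differ from each other was not tested on its own. All 4 livers of 1 photoperiod lay above all 4 of the other with SL above for 12 members at ZT0 (8.94% of all genes), 1 at ZT6 (9.77%), 0 at ZT12 (7.75%) and 3 at ZT18 (9.55%). They lay with SL below for 2 members at ZT0 (7.76%), 11 at ZT6 (10.6%), 8 at ZT12 (6.67%) and 1 at ZT18 (7.94%). In either direction, 16.7% of all genes were apart at ZT0, 20.4% at ZT6, 14.4% at ZT12 and 17.5% at ZT18.

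These counts rest on different numbers of libraries. At ZT0 the count was 8 without SL ZT0 replicate 1. At ZT12 it was 5 without SL ZT12 replicate 3 or without LL ZT12 replicate 2, 6 without SL ZT12 replicate 4, and 4 in a fit of the ZT12 groups alone. At ZT18 it was 3 without SL ZT18 replicate 1, 2 without SL ZT18 replicate 2, SL ZT18 replicate 3 or LL ZT18 replicate 3, and 1 without LL ZT18 replicate 1. All 8 calls at ZT6 held in each of 40 alternative fits, as did 8 of the 13 at ZT0, 4 of the 10 at ZT12 and 1 of the 5, Hmgcs1, at ZT18. Without LL ZT12 replicate 3, the counts were 13 at ZT0, 11 at ZT6, 13 at ZT12 and 7 at ZT18, and the interaction was called for 21 genes. The calls were then not all on 1 side, since Ebp was called higher in SL livers at ZT6 (0.15) and lower at ZT18 (-0.24). Ebp was also called lower at ZT18 without LL ZT18 replicate 3, in DESeq2 and in a fit of the ZT18 groups alone.

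Within SL livers, 14 of the 31 genes were lower at ZT12 than at ZT0 and 0 were higher (4.98% and 4.32% of all genes, 9.30% in all), 12 of them synthesis genes. Nsdhl gave -0.83 ± 0.11, Msmo1 -0.95 ± 0.14 and Hmgcs1 -1.01 ± 0.20 (SE). At ZT18 against ZT6 in SL livers, 4 genes were higher and 0 lower (8.09% and 6.98%, 15.1% in all). They were Hmgcs1, Mvd, Soat2 and Scarb1. That count was 2 without SL ZT18 replicate 2. It was 8 in a fit of these groups alone, where the 4 added genes, Abcg1 (-0.38), Ebp (-0.21), Pmvk (-0.39) and Tm7sf2 (-0.20), were lower, giving 4 higher and 4 lower. It was 6 without LL ZT12 replicate 3, where the added genes, Pmvk (-0.40) and Ebp (-0.21), were lower. In LL livers at ZT12 against ZT0, 9 genes were higher and 1, Mylip, was lower (7.35% and 6.38%, 13.7% in all). That count of 10 was 5 without LL ZT0 replicate 1 or without LL ZT12 replicate 2, and 2 in a fit of these groups alone. At ZT18 against ZT6 in LL livers, 15 genes were lower and 0 higher (5.89% and 4.94%, 10.8% in all), all 15 of them synthesis genes. Hmgcs1 gave -1.78 ± 0.20, Mvd -1.20 ± 0.26 and Cyp51 -0.83 ± 0.13 (SE), and Idi1, at -0.92 ± 0.30 (SE, adjusted p = 0.0402), lost its call without any one of 7 libraries.

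A 24 h cosine wave fitted to the 4 times gave a peak time and an amplitude for each gene, and its 2 terms differed between SL and LL for 21 of the 31 genes (36.0% of all genes). For the 13 synthesis genes with a time of day call in both photoperiods, the SL minus LL peak time had a median of -8.01 h, with single genes from -10.5 to -7.09 h, so that SL peaks fell earlier on the ZT scale. The median over all 1752 genes called in both was -9.89 h. It was taken on shifts written from -12 to 12 h, which spanned that whole range. Genes on either side of 12 h then fall at opposite ends, so this median is uncertain as a centre. Among these 13 genes, Hmgcs1 peaked at ZT 21.6 ± 0.67 h (SE) in SL livers and at ZT 5.6 ± 0.46 h in LL livers, and Sc5d at ZT 21.8 ± 0.98 h and ZT 6.8 ± 0.57 h. Msmo1 peaked at ZT 1.1 ± 0.55 h in SL livers and ZT 9.8 ± 0.62 h in LL livers, and Nsdhl at ZT 1.1 ± 0.48 h and ZT 9.0 ± 0.50 h, later than Hmgcs1 by more than the SE of the peaks, a difference between genes that was not tested. By step, the median peak of the 6 genes before squalene lay between those of Mvk and Fdft1. These were ZT 22.65 and 23.1 in SL livers and ZT 7.38 and 7.67 in LL livers. The median of the 7 genes after squalene was at ZT 1.03 in SL livers and 8.52 in LL livers. The steps overlapped, since Cyp51, after squalene, peaked at ZT 23.3 in SL livers and 6.4 in LL livers, and Sc5d at ZT 21.8 and 6.8. The SL time of day calls of Acat2, Dhcr7 and Fdps were each lost without single libraries. Among the other synthesis genes, Sqle peaked at ZT 22.9 in SL livers and 6.2 in LL livers, and Idi1 at 1.1 and 4.99. Pmvk peaked at ZT 4.6 and 12.3, Tm7sf2 at 3.3 and 12.8, Ebp at 7.2 and 14.2, and Ggps1 at 17.4 (SE 8.05 h) and 22.6. Npc1 peaked at ZT 0.9 ± 0.70 h in SL livers and ZT 10.4 ± 1.10 h in LL livers, and its LL time of day call was lost without LL ZT0 replicate 2 (adjusted p = 0.0511), LL ZT12 replicate 2 (0.159) or LL ZT18 replicate 1 (0.0545). With 4 times in a cycle, the shape of a profile between them was not measured.

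**Figure D4:**
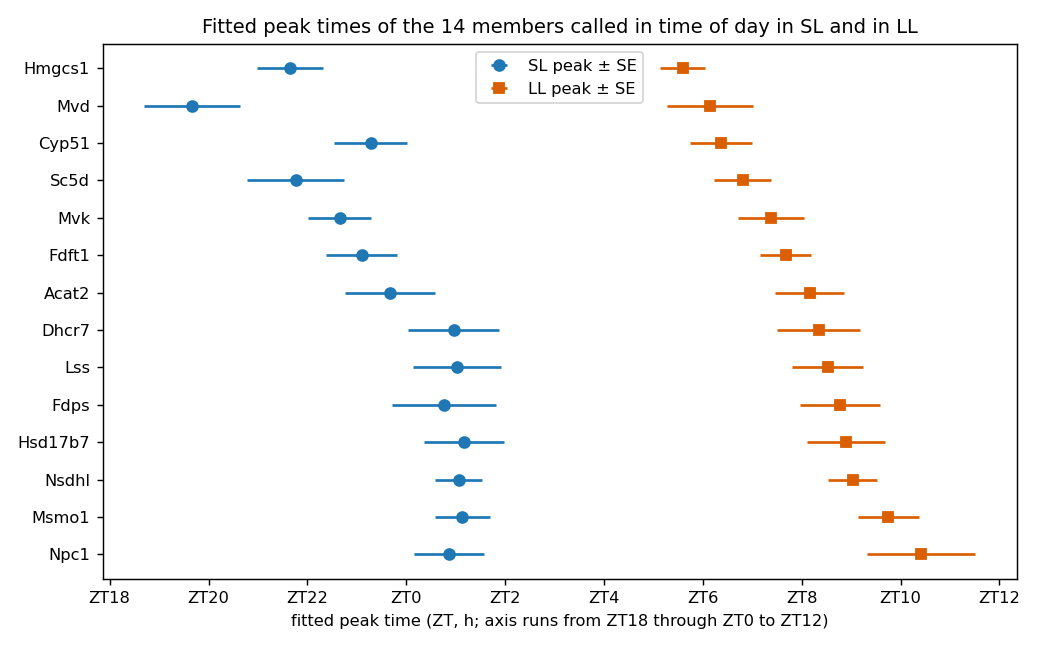
Fitted peak time in hours on the ZT scale, with its SE, of the 14 genes with a time of day call in both photoperiods; blue circles are SL livers and orange squares LL livers, ordered by the LL peak. All SL peaks lie between ZT 19.7 and ZT 1.2 and all LL peaks between ZT 5.6 and ZT 10.4.

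The amplitude of the wave, from its mean to its peak on the log2 scale, was largest for Hmgcs1, at 0.61 in SL livers and 0.90 in LL livers (SE 0.11 each). Mvd had 0.56 in SL livers and 0.62 in LL livers (SE 0.14 each), Msmo1 0.50 in SL livers and 0.44 in LL livers (SE 0.07 each) and Sc5d 0.24 in SL livers and 0.41 in LL livers (SE 0.06 each). Over the 14 genes called in both photoperiods the median amplitude was 0.36 in SL livers and 0.41 in LL livers, and 4 of the 14 had the higher value in SL livers. Over the 1752 such genes of the whole table the medians were 0.36 and 0.34, with 985 higher in SL livers. The difference in amplitude was not tested apart from the difference in timing. Soat2 had 0.27 in SL livers and 0.16 in LL livers (SE 0.06 each), Stard4 0.33 in SL livers and 0.20 in LL livers (SE 0.08 each) and Scarb1 0.21 in SL livers and 0.11 in LL livers (SE 0.05 each), and Mylip had 0.04 in SL livers and 0.27 in LL livers (SE 0.07 each).

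**Figure D5:**
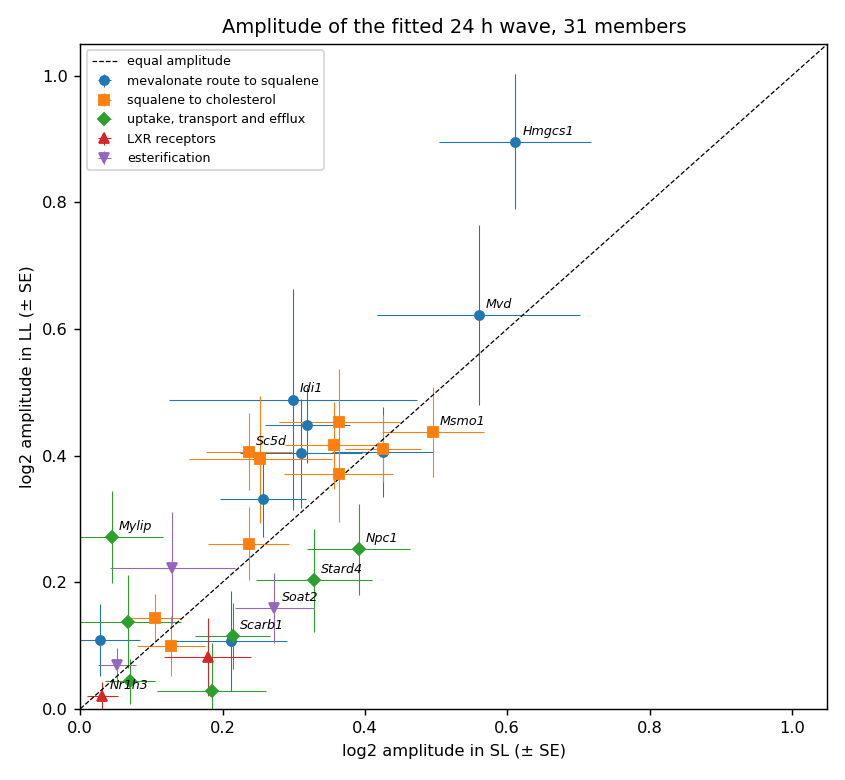
Amplitude of the fitted 24 h wave on the log2 scale in SL livers (x axis) and LL livers (y axis) for the 31 genes, with SE and with symbols by role; the dashed line marks equal amplitudes. Hmgcs1 and Mvd lie farthest from the origin, Nr1h3 lies at 0.03 in SL and 0.02 in LL, and Npc1, Stard4, Soat2 and Scarb1 lie below the line.

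Each SL group was also set against the LL group 12 h later, in an F-test of whether the difference varies among the 4 pairs. A difference of equal size in all 4 pairs is not detected by this test. The test was called for 2 of the 31 genes, Hmgcs1 (adjusted p = 0.0184) and Nsdhl (adjusted p = 0.0183), against 0.519% of all genes in edgeR. For Hmgcs1 the pairs were 236 ± 51.6 CPM in SL at ZT0 with 152 ± 38.6 in LL at ZT12, and 105 ± 18.03 in SL at ZT6 with 81.5 ± 15.8 in LL at ZT18. The other pairs were 118 ± 19.1 in SL at ZT12 with 171 ± 23.5 in LL at ZT0, and 178 ± 58.01 in SL at ZT18 with 279 ± 41.3 in LL at ZT6. SL livers were higher in the first pairs and lower in the last. The count was 4 without LL ZT12 replicate 3, 1 without SL ZT6 replicate 1 or LL ZT18 replicate 1, 6 in DESeq2 and 7 with no filter on low counts.

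Single mice differed across the synthesis genes together. At LL ZT18, replicate 2 had the highest level of its group for 17 of the 19 synthesis genes, with a mean of 0.27 above the group on the log2 scale. At SL ZT18, replicate 2 was highest for 15 (0.25 above) and replicate 4 lowest for 14 (0.23 below). At SL ZT12 replicate 1 and at LL ZT12 replicate 2 were each highest for 13, and at SL ZT0 replicate 1 was highest for 12. The synthesis genes of 1 liver are therefore not separate replicates of a condition.

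Beyond the 31 genes, 30 of 32 listed genes of supply, control, branches and transport were tested, and 16 of the 30 were called for the interaction (32.7% of all genes). Time of day was called for 9 in SL livers (19.1% of all genes) and 9 in LL livers (18.3%). Srebf2, which encodes SREBP-2, differed at ZT12 by 0.31 ± 0.10 (SE, adjusted p = 0.0344), on the other side from the synthesis genes at that time. Scap, the escort that carries SREBPs out of the endoplasmic reticulum, differed by 0.32 ± 0.10 at ZT0 and 0.31 ± 0.10 at ZT18 (SE). Of the genes that supply acetyl-CoA and citrate, Acss2 differed by 0.81 ± 0.14 at ZT0 and -0.70 ± 0.14 at ZT12, and Slc25a1, the mitochondrial citrate carrier, by 0.45 ± 0.08 and -0.35 ± 0.08. Acly, ATP citrate lyase, differed by 0.88 ± 0.28 at ZT0. Stard5, another sterol carrier, was the gene of this list with the smallest adjusted interaction p (1.90e-11), with 0.50 ± 0.06, 0.52 ± 0.06, -0.47 ± 0.06 and -0.42 ± 0.06 from ZT0 to ZT18. Lipa, the lysosomal lipase that frees cholesterol from esters, ran opposite to Npc1, with -0.44 ± 0.14 at ZT0 and 0.47 ± 0.14 at ZT12. Lrp1 and Cyp27a1 were called in none of the comparisons between SL and LL.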

How the data were processed

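Per the labels' protocols, libraries of the 32 livers were made by poly-T selection and a kit that keeps strand. The submitters' processing notes name bcl2fastq 2.20.0, STAR 2.7.2b, featureCounts 1.6.2 and the build GRCm38 (mm10). How strand and reads matching several places were handled, and the annotation, is not given in the sources used here. For each gene the authors deposited whole-number read counts, not normalized, and a table of log2 values, from which only gene symbols were taken here. Each column matched the labels of 1 sample. Counts were scaled by TMM, filtered with filterByExpr and tested in edgeR 4.0.16 (R 4.3.3) by quasi-likelihood, in 1 fit of 8 group means over 32 libraries with 24 residual degrees of freedom. P-values were adjusted by Benjamini-Hochberg over 14456 genes, and called below 0.05. A prior count of 2 was added for log2 CPM. The fitting steps were checked on simulated counts.

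The 31 genes and all lists were chosen with earlier results of these data known. All 31 are described, and all 32 values are given for those with the smallest and the largest interaction p in each of 5 role groups. Gene bounds and overlaps came from GENCODE M21 on GRCm38. Near copies were matches of at least 500 bases at 95% identity or more. Promoters came from RefSeq on GRCm38.p6. Alternatives were DESeq2 1.42.0, limma 3.58.1 (voom), other size factors and filters, fits of the compared groups alone, a replicate block, and each library left out. No batch was given. In 48 pairs of replicates, none agreed within counting noise. Deviations from the group means had a median correlation of -0.0065 between libraries of the same replicate number in different groups. For libraries of different numbers it was -0.0032. Of the 112 same-number pairs, 17 correlated above 0.1, a count that was not set against the other pairs. The 4 livers of a group are from separate mice, per the labels' design, and the precision of each value is that of 4 mice at these depths.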

Additional observations from a re-analysis of the deposited data

Results flagged for a closer look

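Single livers stood apart in 8 of 248 gene and group combinations by Dixon's test, which singles out about 1 group in 20 by chance. The highest values were Sqle in LL ZT18 replicate 2 at 112.3 CPM, against 64.7 to 72.1 in its group, Lss in SL ZT12 replicate 1 at 107.1 CPM, Cyp51 in the same SL liver at 131.4 CPM, and Soat2 in LL ZT12 replicate 3 at 48.4 CPM. The lowest were Npc1 in SL ZT6 replicate 4 at 116.4 CPM, Soat1 in SL ZT18 replicate 4 at 4.28 CPM, Soat2 in LL ZT6 replicate 1 at 32.4 CPM and Scarb1 in LL ZT6 replicate 2 at 238.8 CPM. LL ZT12 replicate 3, which correlated least with its group mates, held 1 of the 8.

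The response to time of day differed between SL and LL by the interaction test of edgeR for 20 genes, whose adjusted p-values were as follows. Before squalene they were 0.000117 for Acat2, 1.54e-07 for Hmgcs1, 3.68e-06 for Mvk, 5.22e-05 for Mvd, 0.000559 for Fdps, 0.0456 for Ggps1 and 6.64e-07 for Fdft1. After squalene they were 0.00634 for Sqle, 9.89e-05 for Lss, 3.37e-05 for Cyp51, 5.17e-07 for Msmo1, 7.45e-08 for Nsdhl, 7.04e-05 for Hsd17b7, 0.038 for Ebp, 9.48e-06 for Sc5d and 0.00124 for Dhcr7. Outside synthesis they were 0.000522 for Stard4, 0.000102 for Npc1, 0.000713 for Soat2 and 0.00947 for Scarb1. The test of the 24 h rhythm alone added Tm7sf2 at 0.0322 and Mylip at 0.0485. The comparison with LL 12 h later differed for Hmgcs1 at 0.0184 and Nsdhl at 0.0183.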

How the results depend on the processing

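Apart from the fits with 1 library left out, counts of the 31 genes called stayed within 1.5 times the reported count in the alternatives, with these exceptions. A fit of the compared groups alone gave 4 in place of 10 for SL minus LL at ZT12, 8 (4 higher, 4 lower) in place of 4 for ZT18 minus ZT6 in SL livers, and 2 in place of 10 for ZT12 minus ZT0 in LL livers. For SL against LL 12 h later, DESeq2 gave 6 and no filter on low counts gave 7, in place of 2. The cause was not tested, except that fits of the groups alone hold fewer samples. With each library left out in turn, the counts were 14 to 19 for time of day in SL livers and 14 to 18 in LL livers, 18 to 21 for the interaction, 19 to 22 for the rhythm difference, and 0 to 0 for the mean of 4 ZTs. For SL minus LL they were 8 to 13 at ZT0, 8 to 11 at ZT6, 5 to 13 at ZT12 and 1 to 7 at ZT18. Within SL livers they were 12 to 16 for ZT12 minus ZT0 and 2 to 6 for ZT18 minus ZT6, and within LL livers 5 to 11 and 10 to 17. For LL ZT18 minus ZT6, 10 calls held in every alternative. For LL 12 h later they were 1 to 4. No single-gene result reversed. Pairing by replicate number was also tried: with the replicate block, the interaction was called for 20 genes and SL minus LL for 12, 8, 10 and 5 at ZT0 to ZT18, and 9 of 32 libraries were closest to their own number. Of the single-gene results with 1 library left out, 203 lost a call and 75 gained one. With 4 mice a group, differences of Mvd and Idi1 (SE 0.26 and 0.30 at a ZT) were measured less precisely than those of Nr1h3 (SE 0.06).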
